A study of Homo sapiens with 6 samples.

Results

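The genes analysed here encode the machinery that carries proteins into mitochondria, and there were 36 of them among the 12982 genes tested in colorectal cancer cells treated with MPM-1. They were taken by name alone: every row of the table whose symbol began with TIMM or TOMM was included, and so were PMPCA, PMPCB, PAM16, GRPEL1, GRPEL2, SAMM50, MTX1, MTX2, CHCHD4, GFER and DNAJC19. The rule uses no measured value. A pair of them, TOMM34 and TIMMDC1, carry the family name but are not translocase subunits. The cells were SW480, a line derived from a human colorectal adenocarcinoma, with wild-type (WT) given as the genotype of every library. One group received MPM-1, the mitochondrial probe molecule that the labels call WT4, and the other received the solvent DMSO, both for 24 h. Each group had 3 libraries, all from cells grown in DMEM with serum, and the dose of MPM-1 used for the sequencing was not named in the sources used here. Whether the libraries of a group came from separate cultures was not stated, so the p-values measure the spread between these libraries, which may be technical.

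Nearly all mitochondrial proteins are made in the cytosol and enter through the TOM complex, a receptor and pore in the outer membrane. From there they are sorted: the SAM complex inserts barrel proteins into the outer membrane, small TIM chaperones escort hydrophobic proteins across the intermembrane space, TIM22 inserts carriers into the inner membrane, and TIM23 with its ATP-driven motor threads presequence proteins into the matrix, where a processing peptidase removes the presequence. Import through TIM23 depends on the membrane potential, and the genes of this machinery are expressed in nearly all tissues.

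The libraries held 32095456 to 40269820 counts with DMSO and 31733667 to 35403841 with MPM-1. Transcripts of mitochondrial DNA took 8.28% to 9.11% of the counts with DMSO and 1.95% to 2.35% with MPM-1. Of 10 markers of colorectal epithelium 9 were among the genes tested, with EPCAM at 400.1 ± 22.03 FPKM (SD, n = 3) with DMSO and 359.8 ± 11.2 FPKM with MPM-1, and 3 were higher and 5 lower. KRT18, CDH1 and KRT8 rose (log2 fold changes 0.89, 0.82 and 0.42), and CDX2, KRT20, CDX1, VIL1 and CDH17 fell (-2.20, -2.03, -0.98, -0.88 and -0.47). FPKM is a level corrected for transcript length and depth. Of the markers of other cell types, 2 of 6 for fibroblasts were among the genes tested, with a summed level of 0.760 to 0.919 FPKM with DMSO and 0.310 to 0.440 FPKM with MPM-1, and COL1A1 fell (log2 fold change -2.07, SE 0.49, adjusted p = 0.00536). None of 4 for endothelium was tested. Of leukocyte markers the lysosomal gene CD68 was tested and rose, from 31.5 to 45.9 FPKM in the DMSO libraries to 68.4 to 73.6 FPKM in the MPM-1 libraries (log2 fold change 1.08, SE 0.14, adjusted p = 0.000165), while PTPRC, CD3E and LYZ were not among the genes tested. With the genes of mitochondrial DNA left out of the scaling, the import genes gave the same counts of calls, 8 higher and 10 lower, and the part of the marker changes in the results was not tested. In bulk RNA such as this, fewer cells expressing a gene and less of its RNA per cell cannot be told apart.

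MPM-1 changed 18 of the 36 import genes in both directions, and their median lay near that of all genes. By the quasi-likelihood test of edgeR, at a p-value under 0.05 after Benjamini-Hochberg adjustment over all genes, 8 of the 36 were higher and 10 were lower, or 50% of them. Among all genes tested, 27.7% were higher and 28.8% lower, 56.5% in all, so the share of import genes that changed was near the background. Their median log2 fold change was 0.030 against -0.026 for all genes, and they took 0.241% to 0.248% of the counts with DMSO and 0.224% to 0.236% with MPM-1. The DMSO and MPM-1 libraries did not overlap for 23 of the 36, where 64.3% of all genes did not overlap. Under a stricter rule, which asked for an adjusted p under 0.01 and a log2 fold change of 1 or more in either direction, TIMM10B was higher and TIMM21 lower. That is 1 gene in each direction, where 5.58% of all genes were higher and 8.75% were lower by this rule. With the p limit of 0.01 and no limit on the fold, 5 import genes were higher and 8 lower, where 20.4% of all genes were higher and 20.7% lower. When the counts were scaled by library size alone, which lowered the median of all genes to -0.18, 6 were higher and 14 lower, so that 30% of the calls were rises and not 44.4%. The calls over all genes moved likewise, from 49.0% to 34.7% rises.

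**Figure D1:**
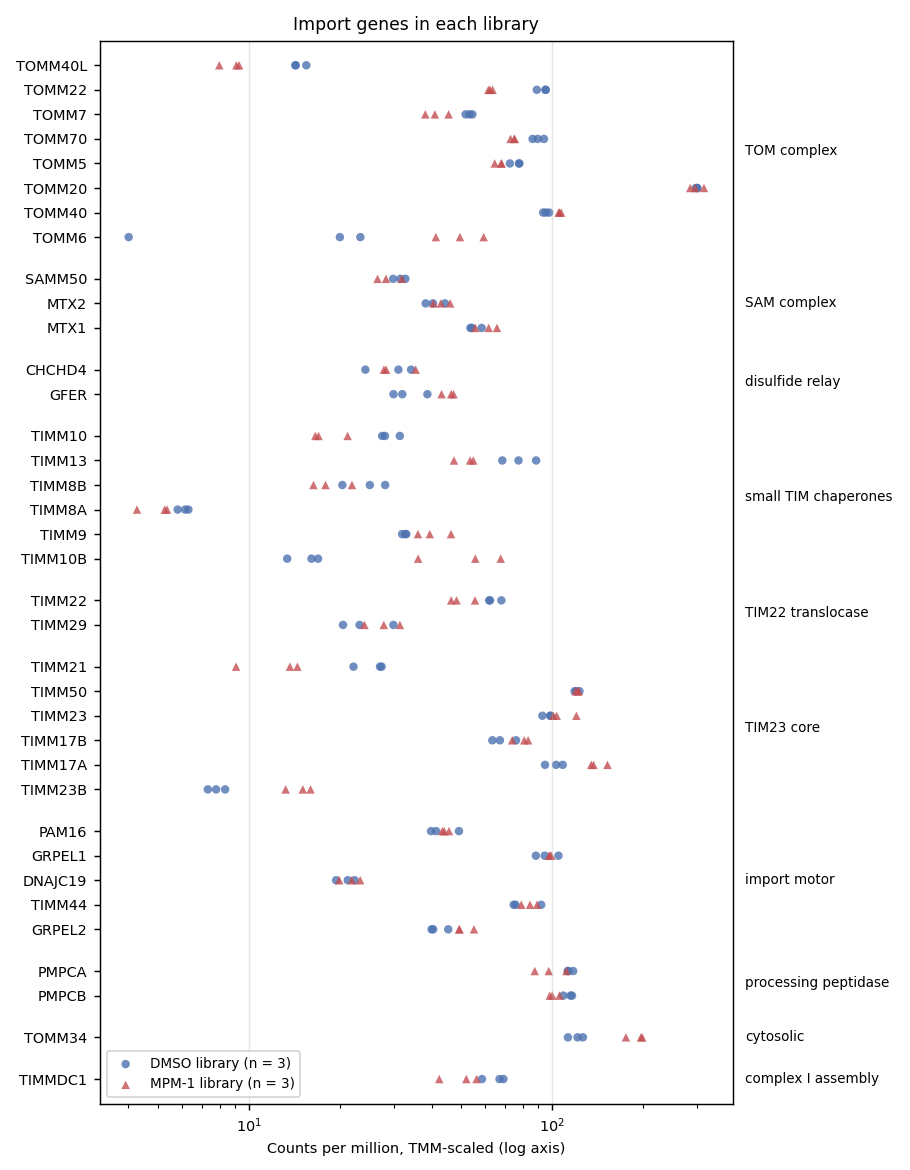
Each point is 1 library, with CPM (TMM-scaled counts at a common depth) on a log axis and the 36 import genes on the vertical axis, grouped by complex. Circles are the 3 DMSO libraries and triangles the 3 MPM-1 libraries. TOMM20 lies at the top of the range near 300 CPM in every library, and the lowest single point is TOMM6 in DMSO 2 at 4.01 CPM; the groups stand apart for TIMM10B and TIMM21 and coincide for TIMM50 and TOMM20.

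**Figure D2:**
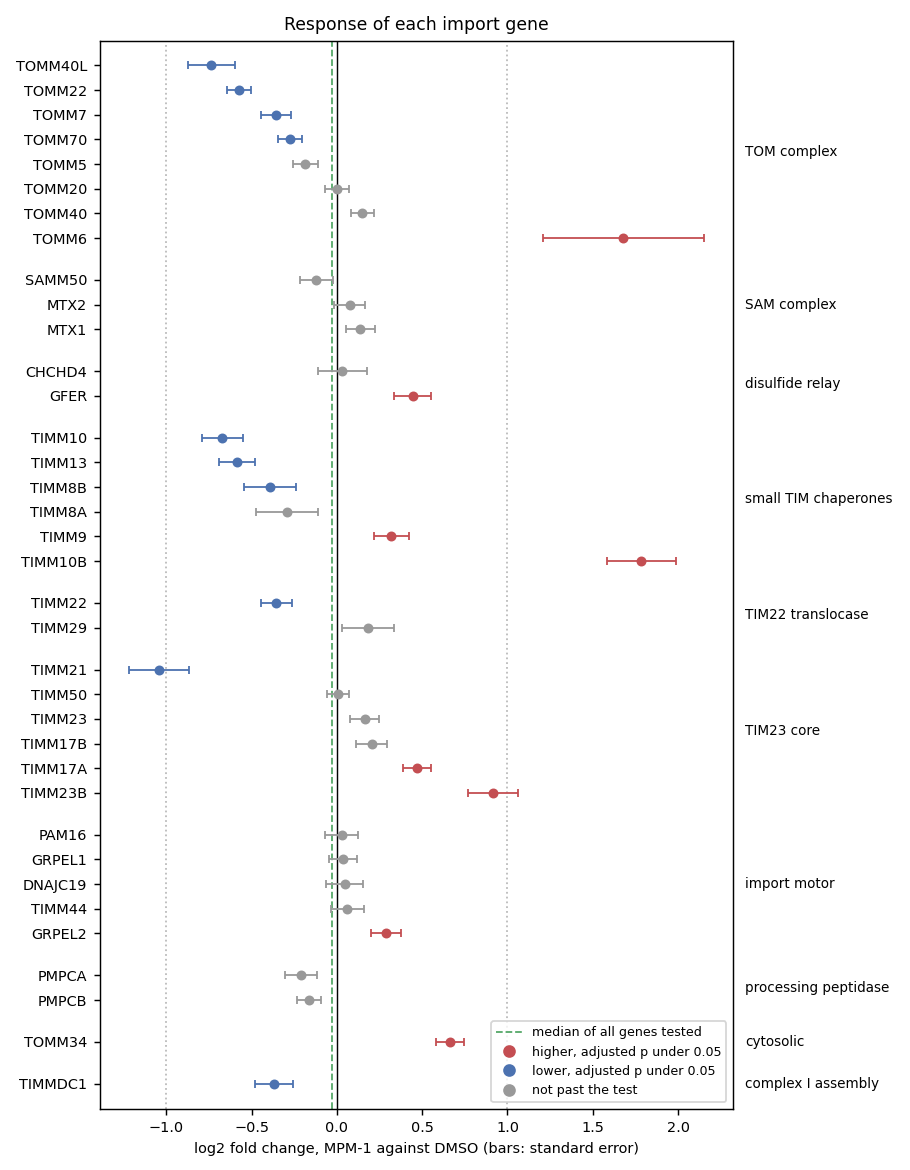
Points are log2 fold changes of MPM-1 against DMSO with their standard errors (3 libraries per group), and the vertical axis lists the 36 genes by complex. In the TOM, SAM, small TIM, TIM22 and TIM23 groups, genes lie on both sides of the dashed line, the median of all genes tested. The relay and motor genes lie right of it and the peptidase genes left. Values run from TIMM21 at -1.04 to TIMM10B at 1.79.

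The entry gate of the outer membrane was measured through 8 genes of the TOM complex, of which 4 were lower, 1 was higher and 3 did not pass the test. Thus 62.5% of them passed, near the 56.5% of all genes. The gene called higher was TOMM6, whose row could not be read on its own, as described below. TOMM22, the central receptor that holds the complex together, gave 89.0, 95.3 and 95.0 CPM (counts at a common depth) with DMSO and 61.6, 63.6 and 62.4 CPM with MPM-1. Every MPM-1 library lay well below every DMSO library, and the libraries within each group were close together (log2 fold change -0.57, SE 0.071, adjusted p = 0.000126). TOMM40L, the paralog of the channel protein, fell from 14.3, 15.4 and 14.2 to 7.98, 9.27 and 9.08 CPM without overlap (log2 fold change -0.74, SE 0.14, adjusted p = 0.00144). It shares 661 exonic bases with NR1I3 on the other strand, not analysed here. TOMM7, a small subunit that modulates the assembly of the complex, fell by 0.36 on the log2 scale (SE 0.087, adjusted p = 0.0062), and TOMM70, the receptor for carrier precursors brought by chaperones, fell by 0.27 (SE 0.071, adjusted p = 0.00884).

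The pore and the presequence receptor did not pass the test. TOMM40, which forms the channel, read 93.4, 95.4 and 97.7 CPM with DMSO and 107, 105 and 106 CPM with MPM-1. Its MPM-1 libraries were all slightly above its DMSO libraries, but the difference did not pass the test (log2 fold change 0.15, SE 0.067, adjusted p = 0.0832). The direction depended on the unit. In FPKM the mean of TOMM40 was lower with MPM-1, 48.9 ± 6.17 with DMSO and 43.0 ± 1.11 with MPM-1, and the groups overlapped. TOMM20, the presequence receptor and the import gene with the most counts, read 301, 301 and 298 CPM with DMSO and 317, 286 and 296 CPM with MPM-1. The libraries of both groups were interleaved (log2 fold change -0.0016, SE 0.070, adjusted p = 0.988). TOMM5, another small subunit, had the highest level per length among the import genes with DMSO, 102 ± 5.84 FPKM against 82.5 ± 0.453 FPKM with MPM-1. It narrowly missed the threshold (log2 fold change -0.19, SE 0.073, adjusted p = 0.0515). TOMM5 shares 520 exonic bases with AL138752.2 and 340 with AL513165.2, both on the same strand and not analysed here. In FPKM, the ratio of TOMM20 to TOMM22 was between 1.89 and 2.04 in the DMSO libraries and between 2.70 and 3.10 in the MPM-1 libraries, and that of TOMM40 to TOMM22 was between 0.964 and 1.12 with DMSO and between 1.51 and 1.54 with MPM-1.

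TOMM6, a small subunit that stabilises the complex, had the largest rise in the TOM complex, and its row could not be read on its own. It gave 23.3, 4.01 and 19.9 CPM with DMSO and 41.3, 49.6 and 59.4 CPM with MPM-1. The groups did not overlap, but the DMSO libraries were far apart, with 768, 173 and 794 counts (log2 fold change 1.68, SE 0.47, adjusted p = 0.013). The gene (ENSG00000214736) lies at chr6:41787662-41789898 on the plus strand of GRCh38, and all of its 637 exonic bases are also exonic in AL365205.1 (ENSG00000124593), a longer gene on the same strand. AL365205.1 gave 117, 117 and 118 CPM with DMSO and 54.4, 51.5 and 54.6 CPM with MPM-1, a fall in every library (log2 fold change -1.13, SE 0.070, adjusted p = 2.37e-06). Reads from the shared exons could have been assigned to either row, and how the counting divided them was not given in the sources used here. Added together, the rows gave 140.4, 121 and 138 CPM with DMSO and 95.7, 101 and 114 CPM with MPM-1, a fall in place of a rise (log2 fold change -0.36, adjusted p = 0.00823). This sum was chosen after the values were seen.

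**Figure D3:**
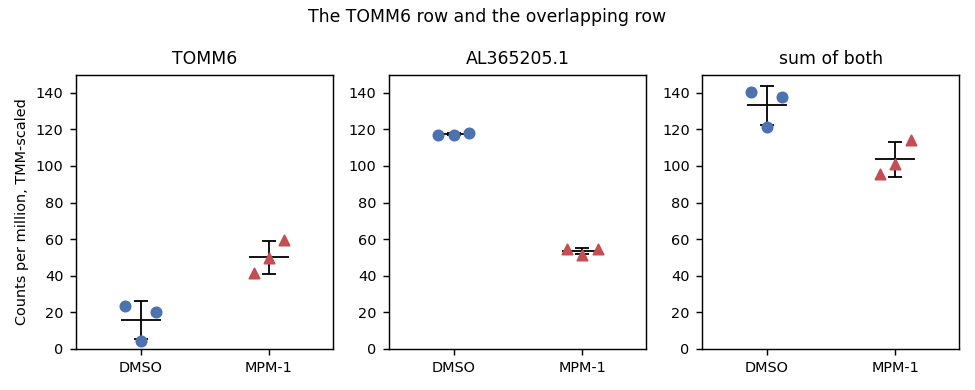
The vertical axes give CPM for the TOMM6 row, the overlapping AL365205.1 row and their sum; points are libraries, horizontal lines the mean of 3 and bars the SD. TOMM6 rises, AL365205.1 falls, and the sum falls from 133 ± 10.5 to 104 ± 9.42 CPM.

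The SAM complex, which builds barrel proteins into the outer membrane, showed no gene past the test among its 3 members. Thus 0% of these few genes passed, where 56.5% of all genes did. SAMM50, the barrel-inserting core, read 31.6, 29.9 and 32.8 CPM with DMSO and 28.3, 31.9 and 26.5 CPM with MPM-1, with overlapping groups (log2 fold change -0.12, SE 0.10, adjusted p = 0.32). For the metaxins, its partners on the cytosolic side, MTX1 read 58.5, 54.3 and 53.7 CPM with DMSO and 61.7, 65.8 and 55.8 CPM with MPM-1. MTX2 read 38.3, 44.3 and 40.4 CPM with DMSO and 40.5, 46.1 and 42.9 CPM with MPM-1. Both overlapped between the groups (log2 fold changes 0.14, SE 0.085, and 0.074, SE 0.090, adjusted p = 0.195 and 0.505).

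The small TIM chaperones of the intermembrane space changed in opposite directions: 2 of the 6 were higher, 3 were lower and 1 did not pass. Thus 83.3% of these few genes passed, where 56.5% of all genes did. TIMM10B (ENSG00000132286), which binds the chaperone ring to the TIM22 translocase, gave 16.9, 13.4 and 16.1 CPM with DMSO and 67.6, 36.1 and 55.8 CPM with MPM-1. The lowest MPM-1 library was above all DMSO libraries, and the MPM-1 libraries differed among themselves more than the DMSO libraries did. In the fit on all libraries this was the largest change of any import gene, a 3.45-fold rise (log2 fold change 1.79, SE 0.20, adjusted p = 8.03e-05). The gene lies at chr11:6481447-6484679 on the plus strand of GRCh38 and shares 33 exonic bases with ARFIP2 on the other strand, which did not pass the test (log2 fold change 0.13, SE 0.10, adjusted p = 0.307). A same-strand gene, AC084337.2, shares 412 exonic bases with TIMM10B and was not analysed here.

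TIMM10, which forms the soluble hexamer with TIMM9, went the other way, with 28.1, 27.5 and 31.4 CPM in the DMSO libraries and 16.5, 21.1 and 16.9 CPM in the MPM-1 libraries. Its groups did not overlap (log2 fold change -0.67, SE 0.12, adjusted p = 0.00124). TIMM9 itself read 33.0, 31.98 and 32.8 CPM with DMSO and 36.1, 46.4 and 39.5 CPM with MPM-1, a small rise without overlap (log2 fold change 0.32, SE 0.10, adjusted p = 0.0242). Its call was lost when DMSO 2, DMSO 3 or MPM-1 2 was left out, and also under library size alone and with limma on FPKM. In FPKM its groups overlapped, at 28.8, 27.4 and 29.4 with DMSO and 25.5, 38.6 and 31.8 with MPM-1. The exons of TIMM9 share 223 bases with KIAA0586 on the other strand, which fell (log2 fold change -1.06, SE 0.20, adjusted p = 0.00141). In FPKM, TIMM9 stood at between 0.602 and 0.687 times TIMM10 in the DMSO libraries and at between 1.14 and 1.37 times TIMM10 in the MPM-1 libraries. TIMM10B was at between 0.133 and 0.167 times TIMM10 with DMSO and between 0.464 and 1.05 times with MPM-1.

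The other hexamer of the space pairs TIMM13 with TIMM8A or TIMM8B. TIMM13 gave 77.4, 68.5 and 88.5 CPM with DMSO and 47.4, 54.9 and 53.6 CPM with MPM-1, lower in every MPM-1 library (log2 fold change -0.59, SE 0.11, adjusted p = 0.0012). It shares 257 exonic bases with LMNB2 on the same strand, which fell by 0.65 on the log2 scale (SE 0.079). TIMM8B read 20.3, 25.0 and 28.1 CPM with DMSO and 16.3, 21.9 and 17.9 CPM with MPM-1, with an overlap of the groups and a call at the edge of the threshold (log2 fold change -0.39, SE 0.15, adjusted p = 0.0492), lost without DMSO 2, DMSO 3, MPM-1 1 or MPM-1 3. TIMM8A, the gene of the deafness-dystonia syndrome and the lowest import gene per length, gave 6.31, 5.81 and 6.15 CPM with DMSO and 4.27, 5.27 and 5.36 CPM with MPM-1. It was lower in each MPM-1 library without passing the test (log2 fold change -0.29, SE 0.18, adjusted p = 0.196). The ratio of TIMM13 to TIMM8B in FPKM overlapped between the groups, at 1.51 to 2.12 and 1.43 to 1.71. TIMM8B shares 351 exonic bases with NKAPD1 on the other strand, which did not pass the test (log2 fold change 0.028, SE 0.12, adjusted p = 0.86).

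**Figure D4:**
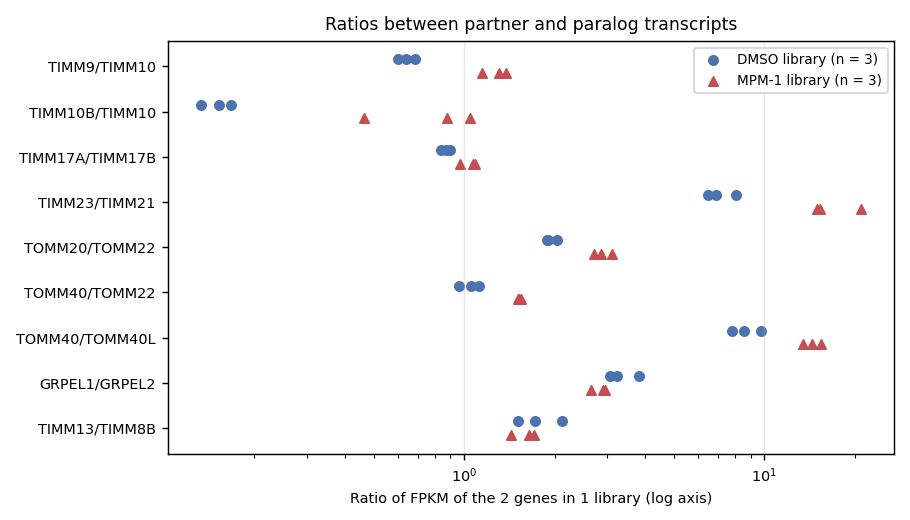
The horizontal log axis gives the ratio of the FPKM of 2 genes within 1 library, with circles for 3 DMSO and triangles for 3 MPM-1 libraries. The ratio of TIMM10B to TIMM10 shifts the most, from at most 0.167 to at least 0.464, and that of TIMM13 to TIMM8B overlaps.

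The disulfide relay folds small cysteine-rich proteins, the TIM chaperones among them, as they arrive. GFER, the oxidase that recharges the relay, read 38.8, 32.02 and 29.9 CPM with DMSO and 43.2, 47.3 and 46.4 CPM with MPM-1, higher in each MPM-1 library (log2 fold change 0.44, SE 0.11, adjusted p = 0.00597). CHCHD4, the receptor that forms the bonds, read 24.2, 31.1 and 34.2 CPM with DMSO and 28.3, 35.4 and 27.8 CPM with MPM-1, with its groups interleaved (log2 fold change 0.032, SE 0.14, adjusted p = 0.867). GFER shares 695 exonic bases with a gene on the other strand, AC005606.2, not analysed here.

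Of the carrier translocase, TIMM22, its channel, read 62.4, 62.0 and 68.0 CPM with DMSO and 46.4, 55.6 and 48.4 CPM with MPM-1. Each MPM-1 library was below each DMSO library (log2 fold change -0.35, SE 0.090, adjusted p = 0.0078). TIMM29, a metazoan subunit that helps assemble it, read 29.9, 23.2 and 20.4 CPM with DMSO and 24.0, 27.8 and 31.5 CPM with MPM-1, which overlapped (log2 fold change 0.18, SE 0.15, adjusted p = 0.336).

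In the TIM23 core, 2 of 6 genes were higher, 1 was lower and 3 did not pass. Thus 50% passed, near the 56.5% of all genes. TIMM21 (ENSG00000075336), which links TIM23 to TOM and accompanies respiratory chain proteins during assembly, gave 22.1, 27.4 and 27.0 CPM with DMSO and 9.06, 14.4 and 13.6 CPM with MPM-1. All MPM-1 libraries were below all DMSO libraries, MPM-1 1 the lowest (log2 fold change -1.04, SE 0.18, adjusted p = 0.000862). The gene lies at chr18:74148511-74160530 on the plus strand of GRCh38. It stayed past an adjusted p of 0.05 with any library left out, but its fold change was under the size limit of the stricter rule without DMSO 2, DMSO 3 or MPM-1 1, at -0.85 without MPM-1 1. None of the other genes of the core was called lower. TIMM50, the presequence receptor of the inner membrane, read 123, 119 and 120.2 CPM with DMSO and 122, 119 and 122 CPM with MPM-1 (log2 fold change 0.0067, SE 0.067, adjusted p = 0.941). The FPKM ratio of TIMM23 to TIMM21 was 6.51 to 8.08 with DMSO and 15.03 to 21.1 with MPM-1.

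The channel subunits TIMM17A and TIMM17B are paralogs that occupy alternative TIM23 complexes. TIMM17A, the stress-regulated form, read 108, 94.7 and 103 CPM with DMSO and 152, 135 and 137 CPM with MPM-1. It rose in every MPM-1 library (log2 fold change 0.47, SE 0.084, adjusted p = 0.0011). TIMM17B read 76.0, 63.5 and 67.2 CPM with DMSO and 83.3, 80.9 and 73.8 CPM with MPM-1, with an overlap and no call (log2 fold change 0.20, SE 0.090, adjusted p = 0.0791). In FPKM, TIMM17A was at 0.837 to 0.896 times TIMM17B with DMSO and at 0.971 to 1.09 times with MPM-1.

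TIMM23 (ENSG00000265354), the channel protein itself, lies at chr10:45972449-46003734, and its copy TIMM23B (ENSG00000204152) at chr10:49942033-49974850, both on the plus strand of GRCh38. Of the 31-base words of TIMM23 transcripts, 27.8% also occur in TIMM23B, and 10.5% of those of TIMM23B occur in TIMM23. The annotated transcripts thus share a part of their sequence, and counts from that part may have been split between the rows. The stretches upstream of both gene starts are shown because they give a view of how close the copies are outside the coding part. They come from RefSeq promoter windows on GRCh38.p14, chr10:45972389-45972448 and chr10:49941953-49942032, plus strand, 5′ to 3′, with the reverse complement of the ETS core (CCGGAAG), a motif bound by ETS family factors, in capitals.
TIMM23: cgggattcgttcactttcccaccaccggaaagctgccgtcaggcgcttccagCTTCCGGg
TIMM23B: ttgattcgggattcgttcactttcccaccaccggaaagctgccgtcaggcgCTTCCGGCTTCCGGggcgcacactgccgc
The 60 bases of TIMM23 aligned within the 80 bases of TIMM23B with 1 edit, and the printed stretches held 2 adjacent copies of the motif in TIMM23B and 1 in TIMM23. The stretches end at the annotated gene starts and differ in length, and over the whole windows each gene had 2 copies, the other TIMM23 copy lying past its RefSeq start. The rows read differently in the libraries. TIMM23 gave 98.5, 92.8 and 98.7 CPM with DMSO and 101, 120.2 and 103 CPM with MPM-1, which did not pass the test (log2 fold change 0.16, SE 0.086, adjusted p = 0.134). TIMM23B gave 7.31, 8.34 and 7.78 CPM with DMSO and 16.0, 13.2 and 15.04 CPM with MPM-1. It was higher in each MPM-1 library (log2 fold change 0.91, SE 0.15, adjusted p = 0.000564). The size of this rise depended on the unit. In FPKM it was smaller, from 4.56 ± 0.146 with DMSO to 6.70 ± 0.145 with MPM-1, and the lowest log2 fold change across the alternatives was 0.47. The sum of both rows, taken after the values were seen, had a log2 fold change of 0.23 (adjusted p = 0.0278). TIMM23B also shares 37 exonic bases with PARG on the other strand, which rose (log2 fold change 0.96, SE 0.084, adjusted p = 1.71e-05).

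Of the import motor at the matrix side, 1 of 5 genes was higher and 4 did not pass. Thus 20% of these few genes passed, where 56.5% of all genes did. GRPEL2, a nucleotide exchange factor of the motor chaperone, read 40.5, 45.4 and 40.0 CPM with DMSO and 49.5, 55.2 and 49.3 CPM with MPM-1. Its groups did not overlap (log2 fold change 0.29, SE 0.088, adjusted p = 0.0185), but the call was lost without DMSO 3 (adjusted p = 0.0701). The call was also lost under library size alone (log2 fold change 0.14) and with limma on log2(FPKM + 0.1) and log2(FPKM + 1) (0.14 and 0.13). In FPKM the groups of GRPEL2 overlapped. Its paralog GRPEL1, the housekeeping form, read 105, 94.5 and 88.4 CPM with DMSO and 97.7, 99.3 and 98.3 CPM with MPM-1, interleaved (log2 fold change 0.038, SE 0.081, adjusted p = 0.716). TIMM44, which tethers the motor to the channel, and PAM16 and DNAJC19, J-type proteins that regulate it, had log2 fold changes of 0.061, 0.028 and 0.046 (SE 0.10, 0.10 and 0.11), and the libraries overlapped for each. PAM16 shares 522 exonic bases with CORO7-PAM16 on the same strand, not analysed here. The chaperone that pulls, HSPA9, is no member by the rule and rose from 487, 509 and 490.3 CPM to 987, 973 and 938 CPM (log2 fold change 0.96, SE 0.063, adjusted p = 3.25e-06).

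The processing peptidase removes presequences in the matrix. Its subunit PMPCA read 117, 113 and 113 CPM with DMSO and 111, 87.6 and 97.4 CPM with MPM-1. PMPCB read 109, 116 and 115 CPM with DMSO and 98.2, 106 and 100.1 CPM with MPM-1. Both were lower in each MPM-1 library and neither passed the test (log2 fold changes -0.21, SE 0.093, and -0.16, SE 0.072, adjusted p = 0.08 and 0.0785). Without MPM-1 1, PMPCA passed (adjusted p = 0.0201). PMPCB shares 628 exonic bases with DNAJC2 on the other strand, which rose (log2 fold change 0.68, SE 0.076, adjusted p = 6.79e-05).

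The pair that is named after the translocases without being part of them both changed. TOMM34, a cytosolic cochaperone of Hsp70 and Hsp90 that holds precursors unfolded, gave 126, 121 and 113 CPM with DMSO and 198, 196 and 175 CPM with MPM-1. It was higher in every MPM-1 library (log2 fold change 0.66, SE 0.082, adjusted p = 0.000126), and per length it went from place 9 to place 1 among the 36 genes, at 59.4 ± 2.68 and 84.5 ± 5.92 FPKM. TOMM34 lies at chr20:44942130-44960486 on the minus strand, and its span overlaps that of PABPC1L on the plus strand without a shared exonic base. PABPC1L rose (log2 fold change 2.86, SE 0.19, adjusted p = 3.31e-06). TIMMDC1, an assembly factor of respiratory complex I, read 58.7, 67.0 and 69.0 CPM with DMSO and 42.4, 56.3 and 52.1 CPM with MPM-1. Its groups did not overlap (log2 fold change -0.37, SE 0.11, adjusted p = 0.0194), and its call was lost without DMSO 2, DMSO 3 or MPM-1 1. TIMMDC1 shares 798 exonic bases with CD80 on the other strand, not analysed here. Without TOMM34 and TIMMDC1, 7 of the remaining 34 genes were higher and 9 lower, with a median of 0.030.

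To ask whether paralogs responded alike, the log2 ratio of CPM within each of 8 pairs was compared between the treatments by an exact two-sided permutation test over the 6 libraries, whose smallest possible p is 0.1. In 5 pairs the groups of ratios did not overlap and p was that smallest value (0.16 after Benjamini-Hochberg adjustment over the 8 pairs), so no pair could pass. The ratio of TIMM10 to TIMM10B changed by -2.42 on the log2 scale, from a mean of 0.91 ± 0.16 (SD, n = 3) with DMSO to -1.50 ± 0.65 with MPM-1. Per length, in FPKM, TIMM10 was above TIMM10B in every DMSO library and in 2 of the 3 MPM-1 libraries. The ratio of TOMM40 to TOMM40L changed by 0.89, TIMM23 to TIMM23B by -0.75, TIMM17A to TIMM17B by 0.26 and GRPEL1 to GRPEL2 by -0.25. For TIMM8A and TIMM8B (0.090, exact p = 0.6), MTX1 and MTX2 (0.060, exact p = 0.8) and PMPCA and PMPCB (-0.055, exact p = 0.8) the ratios overlapped. TOMM20L, the paralog of TOMM20, was not analysed here.

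Sequence windows around the RefSeq start, 250 bases before to 50 after it on GRCh38.p14, were found for 33 of the 36 genes and searched on both strands for 8 motifs. The ETS core CCGGAAG occurred in 15 of the 33 windows (45.5%) and in 19.9% of the 9595 windows of all genes tested that had one. The NRF1 motif GCGCANGCG, named after a regulator of nuclear genes for mitochondria, occurred in 11 (33.3%) against 15.2%. The ATF4-CEBP composite TGATGNAA was found in PMPCB and TIMM22 (6.1% against 1.5%) and the YY1 core AAGATGGCG in 3 (9.1% against 4.1%). For the CCAAT box (36.4% against 36.6%), the Sp1 GC box GGGCGG (66.7% against 71.4%) and the E box CACGTG (9.1% against 10.3%) the shares were near those of all windows, and the CRE core TGACGTCA was in 0 windows, against 3.3%. Windows with the ETS core belonged to genes that rose, such as TIMM10B, TOMM34 and GRPEL2, to genes that fell, such as TIMM10, TIMM13 and TOMM22, and to genes that did not pass, such as TOMM20 and MTX2. A match of letters is a description of the window and no evidence of binding.

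Genes listed from general knowledge as partners of import were read beside these genes by counts and medians alone. Some of them, such as GHITM and ARMC1, are mitochondrial proteins that are not components of the import machinery. Of 25 genes listed as partners outside the rule, 5 were higher and 10 lower, with a median of -0.068. Among all genes tested, 27.7% were higher and 28.8% lower. The rises included GHITM, an inner membrane protein (log2 fold change 1.20, SE 0.072, adjusted p = 1.95e-06), HSPA9, and its escort protein DNLZ (log2 fold change 0.68, SE 0.14, adjusted p = 0.00271). The falls were led by HSPE1, the cochaperonin that folds imported proteins, which gave 157, 147 and 154 CPM with DMSO and 73.2, 86.9 and 77.6 CPM with MPM-1 (log2 fold change -0.95, SE 0.084, adjusted p = 1.72e-05). XPNPEP3, a presequence-trimming peptidase, and ARMC1 fell as well (log2 fold changes -0.67 and -0.62). A list of 16 factors that handle precursors outside mitochondria had 9 higher and 4 lower, with a median of 0.22. It is not limited to mitochondrial import, since EMC3 and SRP54 act at the endoplasmic reticulum. TTC1, EMC3 and UBQLN4 rose (log2 fold changes 0.75, 0.64 and 0.45), whereas the chaperones HSP90AA1 and HSPA8 and their cochaperone STIP1 fell (log2 fold changes -0.66, -0.36 and -0.22).

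Lists of proteins that the machinery imports were counted in the same way. Of 22 clients of the disulfide relay, 4 were higher and 10 lower (median -0.24), with NDUFB7 and COX17, subunit and copper chaperone of the respiratory chain, among the falls (log2 fold changes -0.89 and -0.64). The MICOS subunits, which shape the cristae and contact SAM, had 1 of 7 higher and 4 lower (median -0.30), led by C19orf70 (log2 fold change -0.98, SE 0.12, adjusted p = 0.000103). Of 78 mitochondrial ribosomal proteins 6 were higher and 38 lower (median -0.23). Of 83 nuclear genes of oxidative phosphorylation, taken by symbol, 3 were higher and 47 lower (median -0.29). The rises there included ATP5IF1, which is a regulator and not a subunit. Among all genes tested, 27.7% were higher and 28.8% lower. The lists share genes, NDUFB7 for example being both a relay client and in the oxidative phosphorylation list, so their counts are not separate. For comparison, the 13 protein-coding genes of mitochondrial DNA, whose products are made inside the organelle, all fell (median -1.89). The differences between these lists and the import genes, with 8 higher and 10 lower, were not tested.

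**Figure D5:**
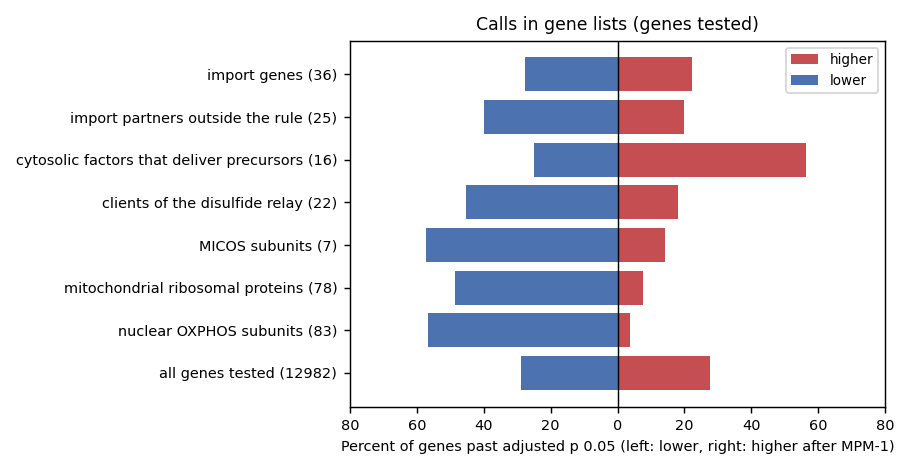
Bars give the percent of each list past an adjusted p of 0.05, lower to the left and higher to the right, with the number of genes tested in brackets. The import genes have 22.2% higher and 27.8% lower, near 27.7% and 28.8% of all genes tested, and the nuclear OXPHOS subunits have 3.61% higher and 56.6% lower.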

How the data were processed

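Messenger RNA libraries of SW480 cells (3 DMSO, 3 MPM-1) were analysed from the table that the authors deposited, with 12982 genes and, for every library, a column of whole-number counts and a column of FPKM (scaled for transcript length and depth). Its log2 fold change and FDR columns, the authors' own comparison, were not used. The submitters' processing notes name HISAT2, DESeq2 and the mouse build mm10, although the gene identifiers are human. The annotation, the counting and its use of strand were not given in the sources used here, and reads of a gene and of an overlapping one on the other strand may not be separable. All columns were assigned to libraries, leaving 0 unused. Libraries of a group differed beyond sampling noise (chi-square per gene 15.4 to 33.2).

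All genes were tested on the deposited counts with edgeR 4.0.16 in R 4.3.3 (TMM scaling, quasi-likelihood test, all 6 libraries, no covariates, Benjamini-Hochberg adjustment over all genes, standard filter on low counts, which every gene passed). A negative log2 fold change means lower with MPM-1. CPM are TMM-scaled counts at a common depth, with a prior count of 2 in log ratios. The procedure was tested on simulated data, where small changes were often missed. There the share of false calls was above the nominal level for small and moderate changes. The simulation changed far fewer genes than were called in these data, so those shares need not hold here. Alternatives were DESeq2 1.42.0 (size factors, Wald test), library size alone, TMM without mitochondrial DNA genes, limma 3.58.1 on log2(FPKM + 0.1) and log2(FPKM + 1) on genes averaging 1 FPKM or more, filters at a mean of 1 FPKM and of 50 counts, a block for the replicate number, leaving out each library, and an adjusted p under 0.01. The labels state no pairing, and the replicate numbers were not taken as pairs. Same-numbered libraries had correlations of 0.0231, 0.138 and -0.0664 in their deviations, which with 3 libraries per group cannot exclude a pairing. FPKM carry no depth, and the limit of 3 counts at a count of 0 covers counting error only. Standard errors came from the quasi-likelihood fit and include the spread between libraries.

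The members and lists were chosen with earlier results of these data known. All members were accounted for, with full values for those past the stricter rule, the largest rise and fall past the test in each complex and both members of each paralog pair, and in other lists the 3 largest rises and falls. Ratios of FPKM between partners were chosen after the values were seen. Coordinates and overlaps came from GENCODE release 29 (GRCh38), and promoter windows from RefSeq. Overlaps of other import genes exist and were not all printed.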

Additional observations from a re-analysis of the deposited data

How the results depend on the processing

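Of the 18 calls, 14 held under all 15 alternatives of processing, which were other scalings, filters, tests and units, the replicate block and each library left out. The 14 include TOMM6, whose row could not be read on its own. Its sum with AL365205.1, which fell, was not among the 15 alternatives. The exceptions were GRPEL2, TIMM9, TIMM8B and TIMMDC1, and TOMM5, PMPCA, PMPCB, SAMM50 and TIMM17B passed under some alternatives only. At an adjusted p under 0.01 with no fold limit, 5 import genes were higher and 8 lower. The replicate numbers were not taken as pairs. With the replicate block 8 were higher and 10 lower as before, while 2 were higher by the stricter rule, the added gene being TOMM6. Leaving out each library in turn gave 1 to 2 higher and 0 to 1 lower by the stricter rule, TOMM6 being added without DMSO 2, TIMM23B without MPM-1 2, and TIMM21 lost without DMSO 2, DMSO 3 or MPM-1 1.

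The median log2 fold change of the import genes was -0.12 under library size alone, -0.14 with limma on log2(FPKM + 0.1) and -0.14 on log2(FPKM + 1), where the medians of all genes were -0.18, -0.15 and -0.13. Genes near no change turned negative there. Under library size alone the log2 fold changes were -0.12 for CHCHD4, -0.10 for DNAJC19, -0.11 for GRPEL1, -0.011 for MTX1, -0.077 for MTX2, -0.12 for PAM16, -0.088 for TIMM44, -0.14 for TIMM50, -0.0011 for TOMM40. With limma on log2(FPKM + 0.1) they were -0.13 for CHCHD4, -0.13 for DNAJC19, -0.11 for GRPEL1, -0.048 for MTX1, -0.050 for MTX2, -0.16 for PAM16, -0.026 for TIMM44, -0.082 for TIMM50, -0.18 for TOMM40, and on log2(FPKM + 1) -0.12 for CHCHD4, -0.12 for DNAJC19, -0.11 for GRPEL1, -0.047 for MTX1, -0.048 for MTX2, -0.16 for PAM16, -0.026 for TIMM44, -0.081 for TIMM50, -0.18 for TOMM40. TOMM20 was at 0.018 with DESeq2's size factors and at 0.018 in DESeq2's test. With libraries left out, the ranges that crossed 0 were -0.10 to 0.14 for CHCHD4, -0.0062 to 0.12 for DNAJC19, -0.018 to 0.11 for GRPEL1, -0.032 to 0.13 for PAM16, -0.0052 to 0.042 for TIMM50, -0.029 to 0.057 for TOMM20. None of these genes passed the test. The fitted difference between paralogs ran from -0.0055 to 0.24 for TIMM8A and TIMM8B, from -0.012 to 0.15 for MTX1 and MTX2 and from -0.16 to 0.063 for PMPCA and PMPCB. The sum of TOMM6 and AL365205.1, added after seeing the data, turned TOMM6 to -0.36, and that of TIMM23 and TIMM23B, likewise added, put TIMM23 past the threshold at 0.23. The causes were not tested. Depth allowed up to 3 counts at a count of 0, far under the lowest count of an import gene, 130 for TIMM8A in MPM-1 1.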
